A study of Mus musculus with 18 samples.

Results

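Liver RNA-seq of mice with a mistranslation mutation in the ribosomal protein gene *Rps2* was examined for 10 genes whose enzymes remove superoxide and peroxides: *Sod1*, *Sod2*, *Cat*, *Gpx1*, *Gpx4*, *Prdx1*, *Prdx2*, *Prdx3*, *Prdx5* and *Prdx6*. The members were chosen by the known function of their proteins, with earlier results of these data known. They were found by symbol through their Ensembl identifiers, which gave all 10 among the 22524 genes of the count tables. All 10 also passed the filter on low counts and so were among the 13353 genes tested. The groups were 10 female A226Y mice, heterozygous for a knock-in *Rps2* allele that encodes the A226Y exchange, and 8 female wild-type mice that also carried the CMV-Cre transgene (WT). All were C57BL/6 and 15 months old, and each gave 1 liver library. The knock-in was made in 129/Sv embryonic stem cells and backcrossed to C57BL/6, and a STOP cassette between loxP sites silences the allele until Cre, driven by the ubiquitous CMV promoter, removes it. Per the study's methods that removal was partial in every A226Y animal, so that each liver was a mosaic of cells with the mutant allele and cells with a silenced allele. A change in these livers can therefore not be assigned to the mutant protein or to the loss of 1 *Rps2* copy from these libraries. The study also compared other mice, whose allele stayed silenced, with wild-type controls. It reported far fewer changed genes there than in A226Y, with little overlap.

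Superoxide leaks from the respiratory chain and from several oxidases, and superoxide dismutases turn it into hydrogen peroxide. SOD1, a copper and zinc enzyme, works in the cytosol and SOD2, a manganese enzyme, in the mitochondrial matrix. Hydrogen peroxide is then reduced to water by catalase in peroxisomes, by the selenium enzyme GPX1 at the expense of glutathione, and by peroxiredoxins, which draw mostly on thioredoxin. The liver is rich in peroxisomes and in these enzymes, since its oxidases of fatty acids, purines and amino acids release hydrogen peroxide as a product.

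The catalytic residues divide the peroxidases, and the codons that encode them are shown here because the later ratios set members of the same chemistry (*Gpx4* and *Gpx1*, *Prdx3* and *Prdx1*) and of different ones (*Prdx6* and *Prdx1*) against each other. GPX1 and GPX4 carry selenocysteine at the active site, encoded by a TGA codon that the ribosome reads through as an amino acid. The stretches run 5′ to 3′ on the coding strand, with 24 bases on each side of the catalytic codon, which is in capitals (GRCm38, GENCODE M21).
Gpx1, codon 47, exon 1 of 2, chr9:108339427-108339477, plus strand: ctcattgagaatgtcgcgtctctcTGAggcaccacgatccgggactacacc
Gpx4, codon 73, exon 3 of 7, chr10:80054713-80054763, plus strand: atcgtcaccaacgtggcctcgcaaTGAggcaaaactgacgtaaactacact

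The peroxiredoxins use a peroxidatic cysteine instead. PRDX1 and PRDX2 are cytosolic and PRDX3 mitochondrial, and all are 2-Cys enzymes that thioredoxin restores. PRDX6 is the 1-Cys member, which is reduced by glutathione and also has phospholipase activity. Their stretches are given the same way, with the cysteine codon in capitals.
Prdx1, codon 52, exon 3 of 6, chr4:116691799-116691849, plus strand: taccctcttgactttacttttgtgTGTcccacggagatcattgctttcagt
Prdx2, codon 51, exon 3 of 6, chr8:84970459-84970509, plus strand: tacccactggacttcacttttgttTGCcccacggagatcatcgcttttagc
Prdx3, codon 109, joined from exons 3 and 4 of 7, chr19:60870103-60871433, minus strand: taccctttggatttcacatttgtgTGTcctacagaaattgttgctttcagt
Prdx6, codon 47, exon 2 of 5, chr1:161247344-161247394, minus strand: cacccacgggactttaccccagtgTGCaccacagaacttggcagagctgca
Over these 51 bases *Prdx1* was identical to *Prdx2* at 84.3% of positions and to *Prdx3* at 80.4%. *Prdx6* shared between 49.0% and 54.9% of positions with the 3 other peroxiredoxins shown. All 10 are annotated as protein-coding genes. The ones called below are *Gpx1* (ENSMUSG00000063856, chr9:108338903-108340343, plus strand), *Sod1* (ENSMUSG00000022982, chr16:90220754-90226329, plus strand) and *Prdx6* (ENSMUSG00000026701, chr1:161240112-161251219, minus strand).

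Total counts ran from 25869192 to 34918732 in the WT libraries and from 23850565 to 62126131 in the A226Y libraries, where mouse 23 was the deepest. *Rps2* itself, the targeted gene, averaged 68.6 ± 13.3 CPM (TMM-scaled read counts on a common library total; SD, n = 10) in A226Y and 114 ± 13.03 (n = 8) in WT, and all 10 A226Y mice were below the lowest WT mouse. Hepatocyte markers were abundant throughout, with a summed level of 86139 to 170351 CPM in WT and 71594 to 145044 CPM in A226Y. A226Y mouse 29 stood apart. Its 12 acute phase genes summed to 71642 CPM, against 15774 to 48834 CPM in WT, and it also had the highest sums of 11 Kupffer cell and macrophage markers (1497 CPM) and of 5 neutrophil markers (46.9 CPM) and the lowest hepatocyte sum.

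All 10 enzymes had a negative log2 fold change in A226Y against WT, from -0.42 for *Gpx1* to -0.07 for *Gpx4*, with a median of -0.17. Of all genes tested, 51.0% were negative and the median was -0.0044. *Gpx1*, *Sod1* and *Prdx6*, enzymes of different chemistries, passed the test and fell, with adjusted p under 0.05 in edgeR's quasi-likelihood test. That makes 3 of 10 members called lower, where 7.03% of all tested genes were called lower, and 0 of 10 called higher, where the share over all genes was 7.27% (14.3% in either direction). With 1 mouse left out in turn, 1 to 4 of the 10 were called. At an unadjusted p under 0.05, 5 of the 10 were lower, against 14.7% of all tested genes. In whole liver, a lower level of a transcript per cell and a smaller share of the cells that hold it cannot be told apart. The calls depended on the model to differing degrees. A fit with 4 surrogate variables as covariates, a number fixed as a setting, left 0 of the 10 members and 50 of all genes called. With 1, 2, 3 and 5 surrogate variables, numbers tried after seeing the data, 5, 2, 4 and 0 members were called, and 2534, 1216, 2234 and 154 of all 13353 genes, against 1910 without them.

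**Figure D1:**
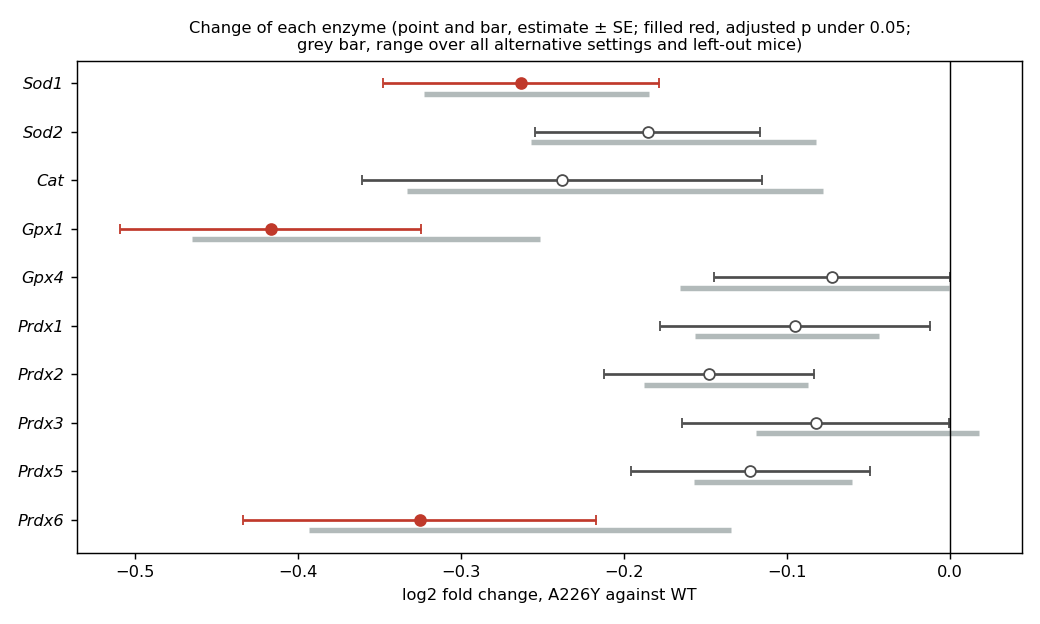
Horizontal axis, log2 fold change of A226Y (n = 10) against WT (n = 8), with each enzyme's estimate as a point and its standard error as a bar, filled red where the adjusted p was under 0.05; the grey bar below spans every alternative setting and every fit with a mouse left out. All 10 points lie left of 0, *Gpx1* farthest at -0.42, and of the grey bars only that of *Prdx3* crosses 0.

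*Gpx1*, the main hydrogen peroxide reducing glutathione peroxidase of the liver, showed the largest change among the members. Its level ran from 1433 over a median of 1652 to 1835 CPM in the A226Y mice and from 1676 over 2198 to 2774 CPM in WT. Every A226Y mouse was below the WT mean and 6 of 10 were below the lowest WT mouse, while 6 of 8 WT mice exceeded the highest A226Y mouse. The groups overlapped through WT mice 6 and 33, at 1807 and 1676 CPM. The means were 1650 ± 129 (SD, n = 10) and 2202 ± 391 CPM (n = 8), so that *Gpx1* fell by 25.1% (log2 fold change -0.42, SE 0.09, adjusted p = 0.00677). The exact permutation test over the mice, two-sided, gave p = 0.00032. *Gpx1* varied less among A226Y mice (coefficient of variation 7.84%) than among WT mice (17.7%), a contrast that was not tested. The call held in all 18 fits with 1 mouse left out, and was lost with 4 surrogate variables (log2 fold change -0.25, adjusted p = 0.260) and with 5 (-0.29, adjusted p = 0.101).

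*Gpx4* encodes the other selenoperoxidase of the group, which reduces lipid hydroperoxides in membranes and guards against ferroptosis. It did not pass the test, with means of 58.9 ± 6.23 CPM in the 8 WT and 56.1 ± 5.93 CPM in the 10 A226Y mice (log2 fold change -0.07, SE 0.07, adjusted p = 0.533). The groups overlapped over nearly their whole ranges, 48.8 to 65.0 CPM and 46.8 to 66.0 CPM. Its count is less certain than that of *Gpx1*, because 68.9% of the 50-base windows of its principal transcript also occur in other annotated transcripts, mostly of the processed pseudogene *Gpx4-ps2*, whereas none of the *Gpx1* windows do. The sources used here do not settle how reads with several matches were counted.

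The superoxide dismutases were lower in most A226Y mice. *Sod1* ran from 429 over a median of 499 to 708 CPM in A226Y and from 525 over 627 to 705 CPM in WT. Of the 10 A226Y mice, 8 were below the lowest WT mouse, but mouse 23, at 708 CPM, was above the highest. *Sod1* fell by 16.7%, from 621 ± 49.0 (n = 8) to 517 ± 78.4 CPM (n = 10), with a log2 fold change of -0.26 (SE 0.08, adjusted p = 0.0426). Without mouse 23 the log2 fold change was -0.32 (adjusted p = 0.00601). The margin was narrow, since the adjusted p was under 0.05 in only 6 of the 18 fits with 1 mouse left out, with values up to 0.0830.

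*Sod2* was also lower on average, short of the threshold. The means were 227 ± 20.8 CPM in the 8 WT and 199 ± 18.4 CPM in the 10 A226Y mice, with all 10 A226Y mice below the WT mean and 5 of 8 WT mice above the highest A226Y mouse. With an adjusted p of 0.0753 (log2 fold change -0.19, SE 0.07; exact permutation p = 0.0112) it was not called. It crossed the threshold without WT mouse 6 (adjusted p = 0.0381) and after an offset for transcript length (-0.25, adjusted p = 0.0267) or GC content (-0.25, adjusted p = 0.0213). *Sod2*, which is known to be induced in inflammation, was lowest of all 18 mice in mouse 29 (164 CPM), the mouse with the highest acute phase sum. It lies 11.68 Mb from *Rps2* on chromosome 17, and whether flanking sequence of the 129/Sv stem cells reaches it was not tested.

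*Cat*, the peroxisomal catalase, was among the most abundant members and had the largest coefficient of variation of the 10 in A226Y (21.8%, against 7.49% in WT). It ran from 1003 over a median of 1839 to 2369 CPM in A226Y and from 1936 over 2171 to 2427 CPM in WT. Of the 10 A226Y mice, 6 were below the lowest WT mouse, and mice 29 and 32 were farthest down, at 1003 and 1416 CPM. The means were 1850 ± 404 (n = 10) and 2182 ± 163 CPM (n = 8), which did not pass the test (log2 fold change -0.24, SE 0.12, adjusted p = 0.200). With mice 23 and 29 left out, a choice made after seeing the data, the log2 fold change was -0.15 (adjusted p = 0.248). With 1 and with 3 surrogate variables *Cat* was called (adjusted p = 0.0175 and 0.0301).

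Of the peroxiredoxins among the members, *Prdx6*, the 1-Cys enzyme, was the only one called lower. It ran from 314 over a median of 512 to 622 CPM in A226Y and from 531 over 606 to 775 CPM in WT. All 10 A226Y mice were below the WT mean and 7 were below the lowest WT mouse. *Prdx6* fell by 20.2%, from 635 ± 96.7 (n = 8) to 507 ± 79.6 CPM (n = 10), with a log2 fold change of -0.33 (SE 0.11, adjusted p = 0.0487; exact permutation p = 0.00491). Without mouse 29, its lowest value, the log2 fold change was -0.27 (adjusted p = 0.0321). The call was close to the threshold and was kept in 6 of the 18 fits with 1 mouse left out and in 7 of 16 other settings.

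The 2-Cys peroxiredoxins among the members did not pass the test, whereas *Prdx4*, which is not a member, did (log2 fold change -0.34, adjusted p = 0.00213). *Prdx2* measured 78.4 ± 8.07 CPM (n = 10) against 86.9 ± 6.70 CPM (n = 8), with 9 of 10 A226Y mice below the WT mean (log2 fold change -0.15, SE 0.06, adjusted p = 0.128). Mouse 23 was the exception, at 98.0 CPM, and without it *Prdx2* was called (log2 fold change -0.19, adjusted p = 0.0264). *Prdx1* measured 410 ± 49.97 against 438 ± 44.5 CPM (log2 fold change -0.10, adjusted p = 0.469). The mitochondrial *Prdx3* measured 113 ± 12.8 against 119 ± 15.3 CPM (-0.08, adjusted p = 0.528). *Prdx5*, an atypical 2-Cys enzyme found in mitochondria, peroxisomes and cytosol, measured 184 ± 18.6 against 200 ± 21.7 CPM (-0.12, adjusted p = 0.272). Their standard errors were 0.06 to 0.08 on the log2 scale, and all 4 had ranges that overlapped between the genotypes.

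**Figure D2:**
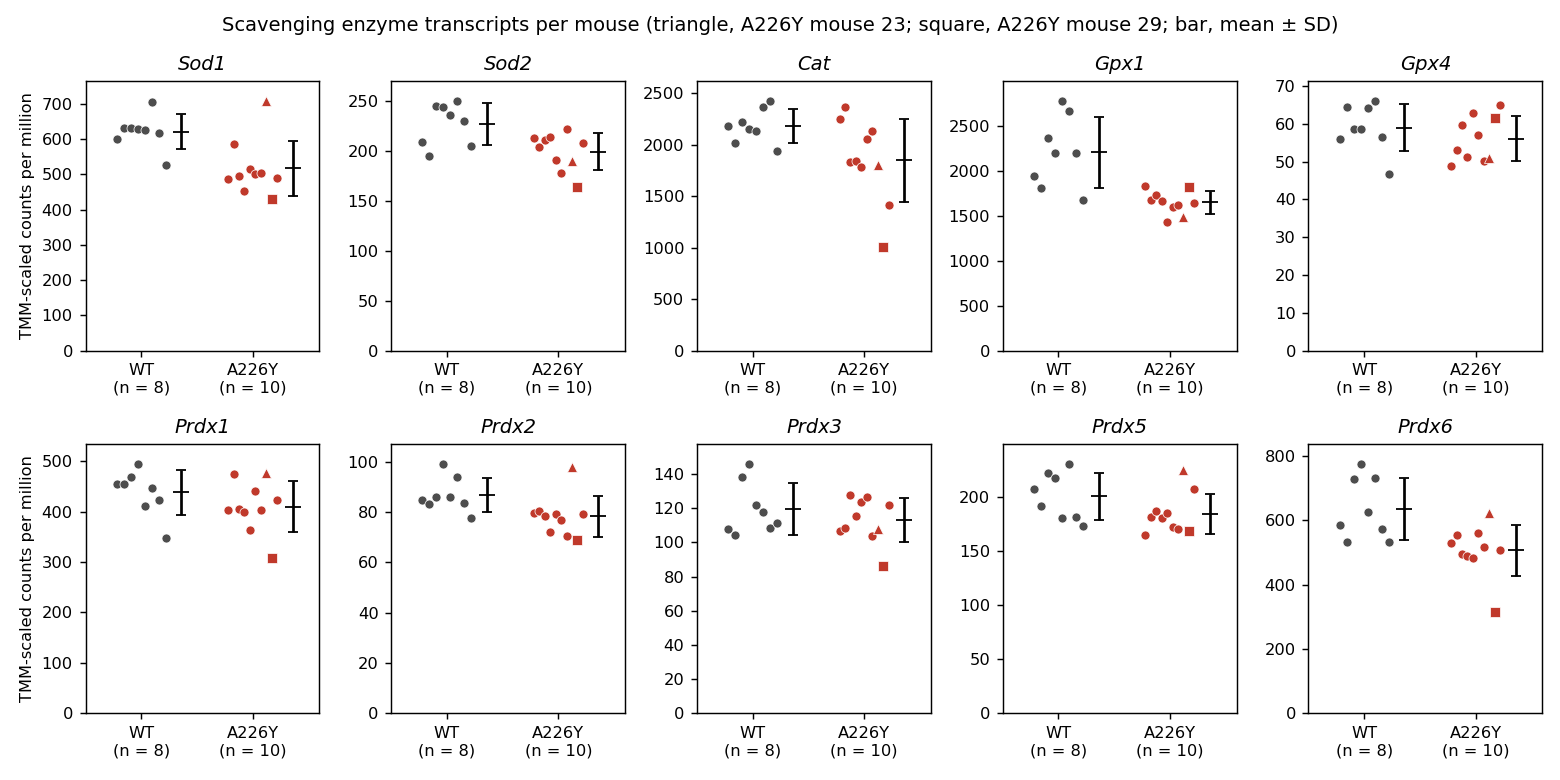
Vertical axes, TMM-scaled CPM from 0, 1 panel per enzyme; each point is a mouse (WT grey, A226Y red), and the black bar is the mean ± SD. In *Gpx1* the A226Y mice sit between 1433 and 1835, with 6 of 8 WT mice above them; mouse 23 (triangle) tops the A226Y mice in *Sod1* and *Prdx2*, and mouse 29 (square) lies lowest in *Cat* and *Prdx6*.

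Some counts may hold reads of other genes. *Prdx5* shares 409 bases of annotated exon with *Trmt112* on the opposite strand, and *Prdx2* shares 177 bases with *Rnaseh2a* and 173 with *Junb*, also on the opposite strand. In WT these neighbours were at 16.5 (*Trmt112*), 27.96 (*Rnaseh2a*) and 28.1 CPM (*Junb*), against 200 CPM for *Prdx5* and 86.9 CPM for *Prdx2*. Of the principal transcript's windows, 29.7% were shared with other genes for *Prdx5*, 23.1% for *Sod1* and 10.9% for *Prdx1*, and *Prdx2* lay between *Prdx5* and *Sod1*. For *Prdx5* the only other gene was *Trmt112*, the opposite-strand neighbour named above. For *Sod1* it was the processed pseudogene *Gm8566*, and neither this nor the genes matching *Prdx1* were in the count tables. The shares were 1.4% for *Sod2*, 0.3% for *Prdx6* and 0 for *Cat*, *Gpx1* and *Prdx3*.

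The enzymes did not deviate alike in every mouse. A226Y mouse 29 had the lowest value of all 18 mice in 7 of the 10 enzymes and was below the lowest WT mouse in 8, with a median deviation of -0.47 on the log2 scale from the WT mean. Only its *Gpx1* and *Gpx4* were not below the WT range, at 1823 and 61.5 CPM. A226Y mice 11 and 22 were below the WT mean in all 10 enzymes. Among WT mice, mouse 33 was also below the WT mean in all 10, and mice 14 and 24 held the highest value of all mice in 4 and 3 enzymes. The sum over the 10 enzymes was 4426 to 6288 CPM in A226Y and 5631 to 7676 CPM in WT.

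**Figure D3:**
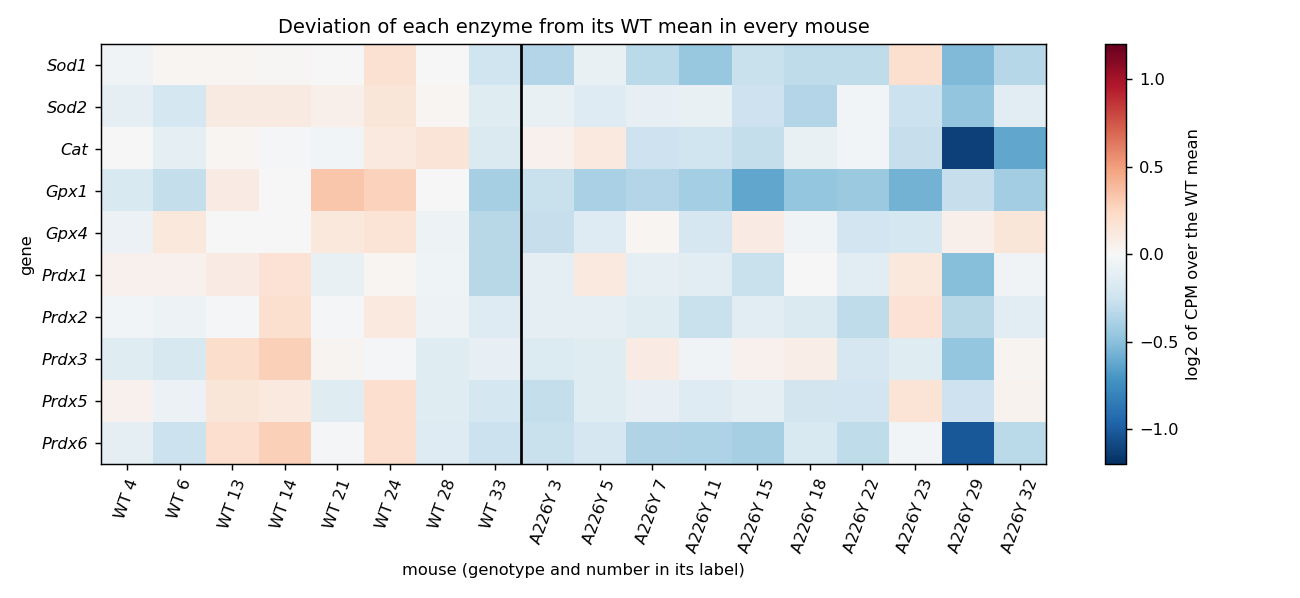
Columns are the 18 mice (8 WT left of the line, 10 A226Y right of it), rows the enzymes, and colour the log2 of a mouse's CPM over the WT mean of that enzyme, blue for lower. The *Gpx1* row is blue in all 10 A226Y mice, mouse 29 is blue in all enzymes but *Gpx4*, and WT mouse 33 is pale blue throughout.

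With each genotype's mean removed, the log2 levels of the enzymes were mostly positively related over the 18 mice. Pearson's r over the 45 pairs ran from -0.39 to 0.838 with a median of 0.365, and without mice 23 and 29 from -0.377 to 0.748 with a median of 0.39. The enzymes of a mouse were read in the same library, and so share its depth and scaling, and the values are a description.

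Ratios between members within a mouse remove whatever scales all genes of a library alike, and were compared in 5 pairs with two-sided exact permutation tests over all 43758 divisions of the mice, adjusted over the 5. *Gpx1* fell relative to *Gpx4*: the log2 ratio of *Gpx4* to *Gpx1* averaged -4.88 ± 0.20 (SD, n = 10) in A226Y and -5.21 ± 0.19 (n = 8) in WT, a difference of 0.33 (exact permutation p = 0.00357, adjusted p = 0.00897). It was above the WT mean in 9 of 10 A226Y mice. *Prdx6* fell relative to *Prdx1*, with a log2 ratio of 0.30 ± 0.11 in A226Y and 0.53 ± 0.17 in WT, a difference of -0.23 (exact permutation p = 0.00359, adjusted p = 0.00897), and all 10 A226Y mice were below the WT mean. Both differences stayed past the threshold in every fit with 1 mouse left out and in the 2 other settings tried for ratios. The ratios were not compared with surrogate variables. With 4 of these, the members' log2 fold changes were -0.25 for *Gpx1* and -0.17 for *Gpx4*, and -0.13 for *Prdx6* and -0.05 for *Prdx1*.

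The other pairs did not pass the test. The log2 ratio of *Sod2* to *Sod1*, mitochondrial over cytosolic dismutase, differed by 0.09 (exact permutation p = 0.367, adjusted p = 0.557). With 1 mouse left out this difference ran from 0.05 to 0.15, the highest without mouse 23 (adjusted permutation p = 0.0765). That of *Cat* to *Gpx1* differed by 0.13 (exact permutation p = 0.446, adjusted p = 0.557). Mouse 29 was the lowest A226Y mouse in this ratio (-0.86, the next -0.22), and without it the difference was 0.24 (adjusted permutation p = 0.0552). That was the highest of the fits with 1 mouse left out, and the lowest was 0.07. The log2 ratio of *Prdx3* to *Prdx1*, again mitochondrial over cytosolic, differed by 0.02 (exact permutation p = 0.843, adjusted p = 0.843).

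**Figure D4:**
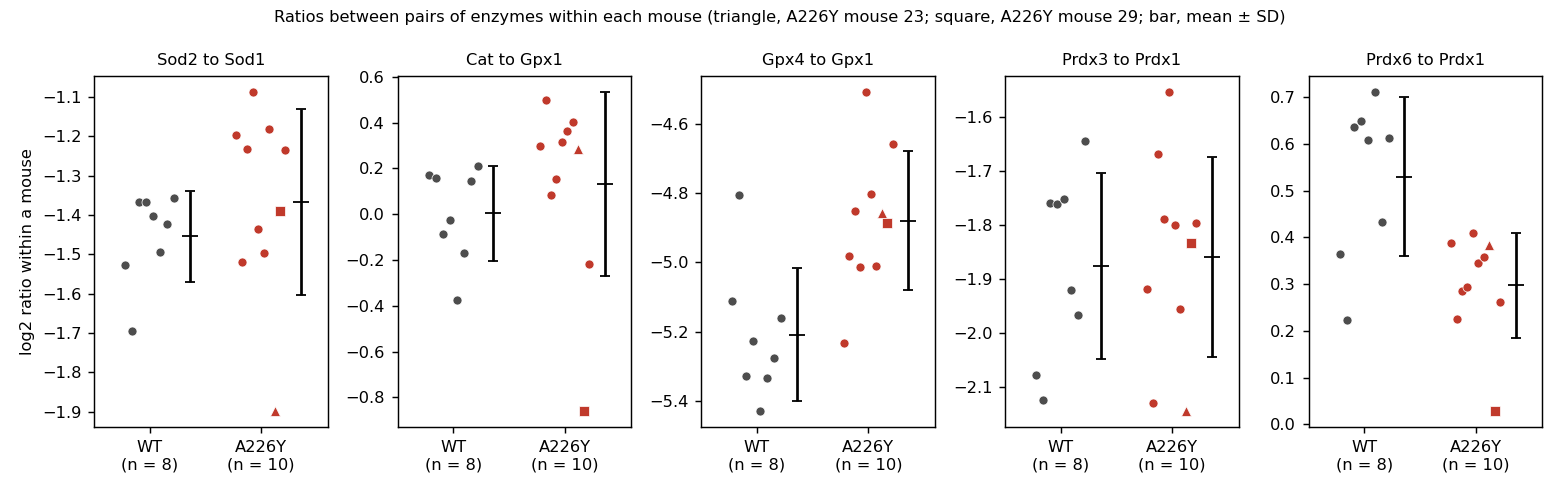
Vertical axes, log2 ratio of the CPM of 2 enzymes within a mouse, 1 panel per pair; points are mice (WT grey, A226Y red; triangle, mouse 23; square, mouse 29) and bars the mean ± SD. The A226Y mean lies 0.33 above the WT mean for *Gpx4* to *Gpx1* and 0.23 below it for *Prdx6* to *Prdx1*.

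Per kilobase of exon, *Gpx1* was the most abundant member in WT, at 1528 ± 271 CPM per kilobase of the union of its exons (SD, n = 8), followed by *Cat* at 835 ± 62.6. *Sod1* (156 ± 12.3), *Prdx1* (144 ± 14.6) and *Prdx6* (132 ± 20.1) came next and overlapped one another in range. *Prdx5* (93.7 ± 10.1) and *Prdx3* (80.8 ± 10.3) also overlapped, as did *Gpx4* (34.2 ± 3.61) and *Prdx2* (28.5 ± 2.20), while *Sod2* (22.7 ± 2.08) lay below every other member in range. *Gpx1* alone made up 50.02% of the summed level and *Cat* 27.3%. These shares and the order below *Gpx1* depended on the length used. They also take no account of reads with several matches. Of the 50-base windows, 68.9% of those of *Gpx4* and 23.1% of those of *Sod1* were shared with other transcripts, and none of those of *Gpx1* and *Cat*. The part of this in the order was not tested. The exons of *Sod1* span 3970 bases in union and 641 bases in its principal transcript. With principal transcripts, a length added after seeing the data, *Gpx1* (2054 ± 364 CPM per kilobase) made up 43.6% of the summed level, *Sod1* came next (969 ± 76.5) and *Cat* after it, with 17.7%. *Prdx6*, at 222 to 325 CPM per kilobase, then stood above *Prdx1*, at 152 to 216, in every WT mouse.

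Promoter windows of RefSeq (GRCm38.p6; 250 bases before the transcript start to 50 after) were searched on both strands for 4 motifs, for every member other than *Prdx6*. The core of the antioxidant response element, TGACNNNGC, which NRF2 binds, was found in the windows of *Sod1* and *Prdx1*, and 12.4% of all 32851 windows held it. Both matches are on the minus strand, in capitals below with 30 bases on each side, and they are shown because 1 of the genes was called and the other was not.
Sod1, 56 bases before the start, chr16:90220676-90220744, plus strand: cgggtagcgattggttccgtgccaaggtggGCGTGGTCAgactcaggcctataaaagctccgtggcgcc
Prdx1, 133 bases before the start, chr4:116685436-116685504, plus strand: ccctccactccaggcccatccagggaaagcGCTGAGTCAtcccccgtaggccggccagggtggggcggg
The GC box GGGCGG was in a window of all 9 members searched and in 35.7% of all windows. The TATA box TATAAA was in those of *Sod1*, *Prdx1* and *Prdx3* and in 13.6% of all windows. The FOXO site GTAAACA was in none of the members' windows and in 3.6% of all windows. These are matches of letters and not measured sites.

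The genes around the enzymes were described by 9 lists of the same pathway, which together held 98 distinct tested genes. Of these, 12 (12.2%) were called lower and 5 (5.1%) higher, against 7.03% and 7.27% of all tested genes, and the total of 17 ran from 13 to 24 with 1 mouse left out. The lists are small, so their shares are coarse. Among 7 other superoxide and peroxide enzymes (median log2 fold change -0.28), 2 fell and 0 rose. *Prdx4*, the peroxiredoxin of the endoplasmic reticulum, fell from 77.6 ± 5.33 (n = 8) to 61.4 ± 5.37 CPM (n = 10; log2 fold change -0.34, adjusted p = 0.00213). Its groups did not overlap, with 68.3 CPM in the highest A226Y mouse and 68.7 CPM in the lowest WT mouse, a separation that 0.285% of all tested genes showed in this direction. *Prdx4* was called in all 18 fits with 1 mouse left out and in 15 of 16 other settings, the exception having an adjusted p of 0.0719. *Gpx6* was also called lower, but stood below 1 CPM on average in both groups (0.300 and 0.912 CPM).

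The systems that restore the enzymes had 5 of 34 tested genes called (14.7%), close to the 14.3% of all genes. In the thioredoxin and glutaredoxin list, 1 of 14 tested genes fell and 1 rose (median -0.05), but 3 fell without A226Y mouse 23 or WT mouse 33, 2 fell without A226Y mouse 5 or WT mouse 4 or 6, and 3 rose without mouse 29. *Srxn1*, sulfiredoxin, which repairs overoxidised 2-Cys peroxiredoxins, rose from 40.1 ± 4.66 to 53.7 ± 11.9 CPM (log2 fold change 0.42, adjusted p = 0.0204), and *Txnrd3*, a thioredoxin reductase best known from testis, fell (log2 fold change -0.41, adjusted p = 0.00823). In the list of glutathione synthesis, its recycling and NADPH supply, 1 of 11 fell and 0 rose (median -0.13), the gene being *Idh1*, a cytosolic and peroxisomal source of NADPH (log2 fold change -0.38, adjusted p = 0.0338). Selenoprotein synthesis, on which *Gpx1* and *Gpx4* depend, had 1 of 9 lower, *Scly*, which frees selenium from selenocysteine (log2 fold change -0.24, adjusted p = 0.0366), and 1 higher, *Sephs1* (0.30, adjusted p = 0.0484), with a median of -0.12. With 1 mouse left out the calls of *Idh1* and *Scly* were each kept in 11 of 18 fits and that of *Sephs1* in 4, while *Srxn1* and *Txnrd3* were called in all 18. The counts of the glutathione and selenoprotein lists ran from 0 to 2 lower and 0 to 1 higher. Of 12 tested genes of NRF2 and its common targets, 0 fell and 1 rose, again *Srxn1* (median 0.05). None of the 4 metallothionein and ferritin genes was called (median -0.37), and 2 were called lower without mouse 29.

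On the producing side, 4 of 18 tested enzymes that make peroxide or superoxide fell (22.2%, against 7.03% of all genes) and 0 rose (median -0.20). *Paox*, a polyamine oxidase (log2 fold change -0.63, adjusted p = 0.00156), *Ddo*, which oxidises D-aspartate (-0.64, adjusted p = 0.00363), *Pipox*, which oxidises pipecolate and sarcosine (-0.40, adjusted p = 0.00700), and *Hao1*, a glycolate oxidase (-0.49, adjusted p = 0.0422), were the genes called. The call of *Hao1* was kept in 6 of the 18 fits with 1 mouse left out, and those of the other oxidases in all 18. All 4 encode peroxisomal oxidases that release hydrogen peroxide, the substrate of catalase. Of 16 peroxisome assembly genes, *Pex10* (-0.37, adjusted p = 0.00767), *Pex6* (-0.36, adjusted p = 0.0146) and *Pex26* (-0.29, adjusted p = 0.0290) fell (18.8%, against 7.03%) and 0 rose, while the median of the list was -0.04. Of 11 regulators of the members, 0 fell and 3 rose (27.3%, against 7.27% of all genes; median 0.00): *Ppargc1a* (0.74, adjusted p = 0.00539), *Sirt1* (0.28, adjusted p = 0.00866) and *Hif1a* (0.22, adjusted p = 0.00627). With 4 surrogate variables 0 of the 98 list genes were called.

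**Figure D5:**
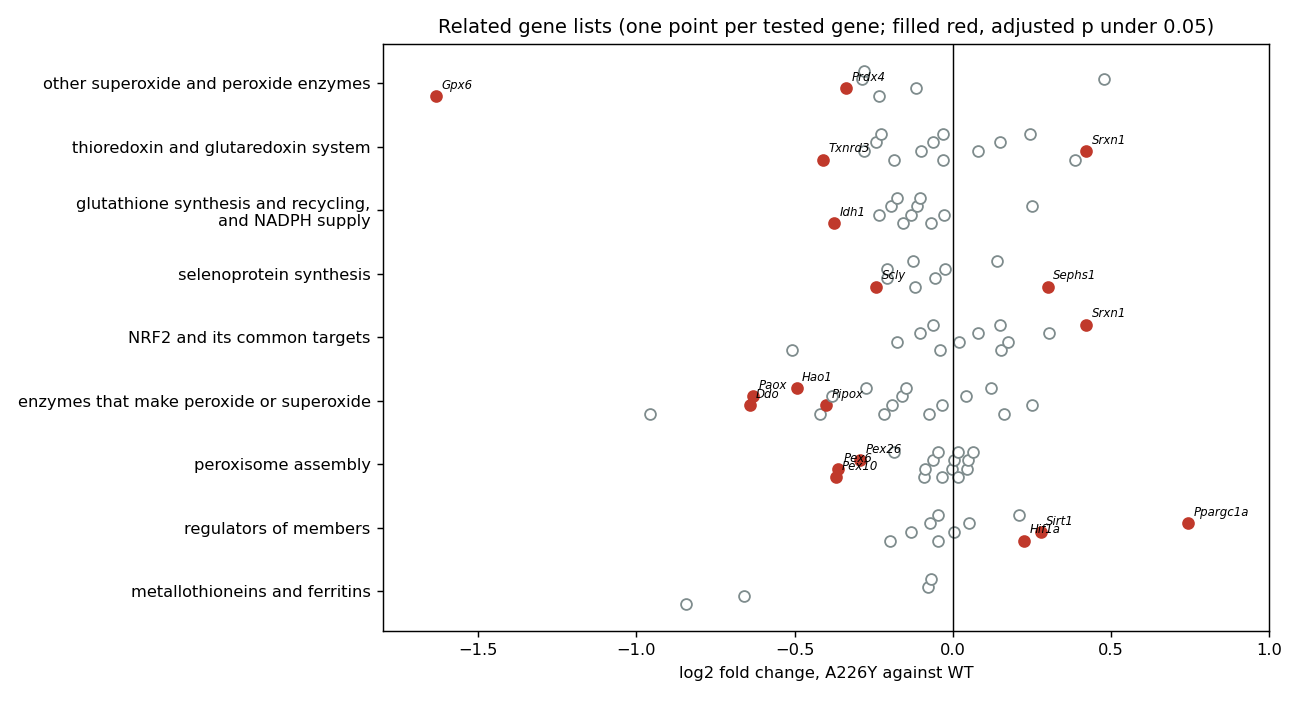
Horizontal axis, log2 fold change of A226Y against WT; rows are the 9 lists of related genes, and each circle is 1 tested gene, filled red and named where the adjusted p was under 0.05. Red circles lie left of 0 for all 4 called enzymes that make peroxide or superoxide and all 3 called peroxisome assembly genes, and right of 0 for all 3 called regulators.

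Markers of other liver cells were set beside these values. Of all genes tested, 7.03% were called lower and 7.27% higher. Of 11 Kupffer cell and macrophage markers, 10 had negative log2 fold changes and 1 was called lower (*Clec4f*, log2 fold change -0.65, adjusted p = 0.0261), with sums of 381 to 1497 CPM in A226Y against 578 to 1175 CPM in WT. This count turned on mouse 29: without it 8 of the 11 were called lower and the highest A226Y sum was 925 CPM. With any other mouse left out, 0 to 3 of the 11 were called. The fit without mouse 29 called 2560 of 13320 genes, 46.4% of them higher, against 1910 of 13353 genes with all mice. Of 6 stellate cell genes, *Col1a1* and *Col3a1* fell (-0.77, adjusted p = 0.0162; -0.60, adjusted p = 0.00516), and the sums were 302 to 361 against 292 to 367 CPM. Only 3 of these 6 had negative log2 fold changes (median -0.08). Of 8 hepatocyte genes, *Tat* and *Cps1* rose (0.85, adjusted p = 0.0331; 0.55, adjusted p = 0.0137), while 3 of the 8 had negative log2 fold changes (median 0.08). With 1 mouse left out the call of *Tat* was kept in 12 of 18 fits and that of *Cps1* in all 18. No gene was called among 6 red blood cell, 8 lymphocyte, 3 neutrophil, 6 endothelial, 5 cholangiocyte and 12 acute phase genes tested. Without mouse 29, 5 acute phase genes, 1 red blood cell gene and 1 lymphocyte gene were called lower. All 6 red blood cell genes tested (median log2 fold change -0.46) and all 8 lymphocyte genes (median -0.38) had negative log2 fold changes. Summed red blood cell markers, whose cells are rich in PRDX2 and catalase, were 164 to 427 CPM in A226Y and 209 to 770 CPM in WT. Lymphocyte sums were 13.5 to 38.1 against 15.0 to 47.6 CPM, neutrophil sums 2.06 to 46.9 against 1.70 to 17.8 CPM, endothelial sums 207 to 316 against 221 to 293 CPM and cholangiocyte sums 13.1 to 29.9 against 12.1 to 25.9 CPM. Acute phase sums were 15517 to 71642 CPM in A226Y, and to 20845 CPM without mouse 29, whose removal also lowered the highest neutrophil sum to 7.51 CPM. No marker was at 0 in all mice, and the part of these cells in the members' values was not tested.

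The genes whose log2 levels followed each called member most closely over the 18 mice, with the genotype means removed, were named as a description. For *Sod1* they were *Dpm3* (r = 0.938, rho = 0.899), *Surf1* (r = 0.925, rho = 0.75) and *Eef1d* (r = 0.916, rho = 0.872), and r was 0.847, 0.867 and 0.813 without mice 23 and 29. For *Gpx1* they were *Tex264* (r = 0.827, rho = 0.668), *Pianp* (r = 0.822, rho = 0.787) and *N4bp3* (r = 0.816, rho = 0.759), with r of 0.727, 0.774 and 0.714 without mice 21 and 33. For *Prdx6* they were *Echs1* (r = 0.936, rho = 0.851), *Fars2* (r = 0.933, rho = 0.891) and *Commd1* (r = 0.93, rho = 0.872), with r of 0.844, 0.844 and 0.857 without mice 23 and 29. The leading gene of the others was *Map3k15* for *Sod2* (r = 0.869), *Ces1f* for *Cat* (r = 0.957), *Rcc1l* for *Gpx4* (r = 0.854), *Vkorc1* for *Prdx1* (r = 0.932), *Mien1* for *Prdx2* (r = 0.941), *Pcbd1* for *Prdx3* (r = 0.876) and *Atp5o* for *Prdx5* (r = 0.887).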

How the data were processed

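The authors deposited, for each of the 18 mice, raw counts for every listed Ensembl gene, whole numbers without normalization. Per the study's methods, single-end reads of 50 bases were quantified with RSEM on Ensembl annotation, whereas the submitters' processing notes name fastp, STAR, featureCounts and GRCm38, without versions. Which of these made the counts, and with which strand setting, is not given in the sources used here. GENCODE M21 (GRCm38) gave symbols and positions for 22291 of 22524 identifiers.

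A gene was kept if 50% or more of the mice of a genotype had 10 or more counts. All 13353 such genes were tested with edgeR 4.0.16 (R 4.3.3), TMM scaling, the quasi-likelihood test without covariates, and Benjamini-Hochberg adjustment. A gene was called at an adjusted p under 0.05. CPM are TMM-scaled, and log2 ratios used a prior count of 2. The common biological coefficient of variation was 19.4%. For the members, whose lowest count in any mouse was 1265, the spread between mice and not the depth therefore set the precision. No 2 libraries of a genotype were alike (lowest chi-square per degree of freedom 19.2 over 73 pairs).

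The text names all members, *Rps2*, overlapping genes, at most the 4 called genes with the smallest p per list, and genes most correlated with a member. Members and lists were chosen with earlier results of these data known, and 1 gene of the list of peroxide-making enzymes is not reported here and was left out of its counts. Alternatives were other scalings, filters and tests (DESeq2 1.42.0, limma-voom 3.58.1), surrogate variables (sva 3.50.0), offsets for length or GC content, and each mouse left out. On simulated counts, the test recovered 198 of 200 genes changed by 2-fold or 4-fold, more than any member changed, with 9 false calls among 13256 genes. With a simulated length or GC bias and no offset it made 2913 and 3533 false calls, and with the matching offset 15 and 10.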

Additional observations from a re-analysis of the deposited data

Results flagged for a closer look

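In each genotype, the highest and the lowest mouse of each enzyme were compared with the nearest of the others by Dixon's ratio, and 2 of 20 groups held a mouse past the 95% limit, where chance gives about 1 in 20. *Prdx2* in A226Y mouse 23 (98.0 CPM) was far above the other A226Y mice, the gap being 0.599 of the group's range against a limit of 0.466. *Prdx6* in A226Y mouse 29 (314 CPM) was far below the others, with a ratio of 0.549.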

How the results depend on the processing

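No paired analysis was possible because the mouse numbers in the labels are not shared between the genotypes. Surrogate variables moved the calls most, and the cause was not tested. With their number set to 4, the second had a squared correlation of 0.396 with genotype. With 4, 50 genes, 0 members and 0 list genes were called, and *Sod1* (-0.22), *Gpx1* (-0.25) and *Prdx6* (-0.13) lost their calls. The hepatocyte marker *Tat* then turned to -0.040. Other numbers were chosen after seeing the data. With 1, 2534 genes (against 1910 without surrogate variables), 5 members and 33 list genes (against 17) were called, *Sod2* (-0.21) and *Cat* (-0.33) among them. With 2, 1216 genes were called, *Prdx6* lost its call (-0.22) and *Prdx3* turned to 0.018. With 3, 2234 genes and 27 list genes were called, as was *Cat* (-0.22). With 5, 154 genes, 0 members and 3 list genes were called, with *Sod1* at -0.21, *Gpx1* at -0.29 and *Prdx6* at -0.14.

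*Prdx6* also lost its call with RLE size factors (-0.32), library size alone (-0.29), no filter beyond 1 count (-0.32), a length offset (-0.29), a GC offset (-0.32) and an offset on principal transcript length added after seeing the data (-0.29). *Sod1* lost it with library size alone (-0.23), no filter (-0.26), the length offset (-0.26) and that on principal transcripts (-0.18), so that 1 member was called with library size alone and with no filter. *Sod2* was called with the length (-0.25), GC (-0.25) and principal transcript offsets (-0.26). Library size alone made 67.9% of the called genes higher in A226Y, against 50.8% with TMM. Without A226Y mice 23 and 29 *Prdx2* was called (-0.17), with 4 members, 26 list genes and 2320 of 13327 genes in all. With DESeq2 2418 genes were called.

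With each mouse left out in turn, 1255 to 2560 genes and 1 to 4 members were called. The log2 fold changes ran from -0.32 to -0.24 for *Sod1*, -0.21 to -0.16 for *Sod2*, -0.36 to -0.27 for *Prdx6*, -0.19 to -0.12 for *Prdx2*, -0.47 to -0.36 for *Gpx1*, -0.28 to -0.17 for *Cat* and -0.16 to -0.092 for *Prdx5*. Those of members not called moved by over 1.5 times in *Prdx3* (-0.11 to -0.036, from -0.082; without WT mouse 13 or 14 or A226Y mouse 29), *Prdx1* (-0.14 to -0.056, from -0.095; without A226Y mouse 29) and *Gpx4* (-0.11 to -0.048, from -0.072; without WT mouse 33). The difference of the *Prdx3* to *Prdx1* log2 ratios ran from -0.019 to 0.050. *Gpx1* alone was called without A226Y mouse 3, 7, 11, 15, 18, 22 or 32 or WT mouse 13, 14, 21 or 24, fits that have fewer mice. The summed WT level per kilobase was 3056 CPM by the union of exons, 3827 by longest transcripts and 4712 by principal transcripts. All 10 members stayed negative in every alternative run other than 2 surrogate variables.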
